A study of Mus musculus with 6 samples.

Results

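Cyp17a1, Sult2a7, Ntrk2 and A1bg are mouse liver genes favoured by continuous rather than pulsed growth hormone. They were picked by symbol from a table of 332 genes, and they were selected on measured values, since every gene of that table had already been chosen by its difference between the same livers. The differences of the 4 genes are therefore a description, and no test of them is given. In livers of mice dosed with gigantol, the steroid hydroxylase gene Cyp17a1 and the sulfotransferase gene Sult2a7 were lower than in vehicle livers, whereas the neurotrophin receptor gene Ntrk2 and the plasma glycoprotein gene A1bg were higher. For each of the 4 genes the 3 gigantol livers lay wholly on one side of the 3 vehicle livers.

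The study measured liver RNA of 6 Kunming mice, all male, 6 to 8 weeks old and 20 to 28 g in weight, which had been randomised to gigantol or vehicle. Kunming mice are an outbred stock, so the animals were not genetically identical. The gigantol group (3 mice) received 10 mg/kg by mouth and the vehicle group (3 mice) received the solvent alone, and livers were taken 4 h later, 1 library per mouse. Gigantol is a plant bibenzyl from Dendrobium orchids, which the series title names as an agonist of the nuclear receptors PPARα and PPARγ. No allele, transgene or other treatment is named in the labels for either group.

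Growth hormone reaches the liver in pulses in male rodents and in a more even stream in females. Each pulse switches on the transcription factor STAT5 through the growth hormone receptor and the kinase JAK2, and the pattern in time sets which of a group of male-favoured and female-favoured liver genes are made. Cux2 and Bcl6 encode repressors that take part in this choice, and Socs2 and Cish are induced by STAT5 and feed back on the receptor. Cyp17a1 encodes the microsomal enzyme that carries out 17α-hydroxylation of steroids and the lyase step toward androgens. Sult2a7 belongs to the family of sulfotransferases that add sulfate to hydroxysteroids and bile acids. Ntrk2 encodes TrkB, the receptor tyrosine kinase for brain-derived neurotrophic factor, and A1bg encodes alpha-1-B glycoprotein, a secreted protein of the immunoglobulin superfamily. All 6 mice were male, and hormone levels are not part of the data analysed here.

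Levels are given in CPM, the usual count of reads per gene scaled to a common library total. By the step between the lowest CPM values, 1 read was worth 0.0375 to 0.0471 CPM and 3 reads 0.112 to 0.141 CPM, for library totals of an estimated 21241300 to 26702300 reads. The titles of the samples, which the table's columns carry, read PANC1-OE and PANC1-Vector after a human cell line, while all 332 gene IDs belong to the mouse. Grouping followed the treatment label of each title. With gigantol 119 of the table's genes had a positive and 213 a negative log2 fold change; none was nearer to 0 than 1.00, and the largest unadjusted p of the authors was 0.0499. None of 12 hepatocyte marker genes was among the rows analysed here, so the liver label could not be checked against them. With 3 mice per group, an exact permutation test could not go below p = 0.10.

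The sequences before the start sites of Ntrk2 and A1bg are shown because these 2 of the 4 genes matched an entry of the promoter table used. They come from RefSeq on build GRCm38.p6, 250 bases before the annotated start, 5′ to 3′ on the gene's strand. Capitals mark matches to any motif searched. These were the STAT5 motif TTCNNNGAA, the motif ATCGAT or ATTGAT of HNF6 and CUX2, the forkhead motif TGTTTAC or TATTTAC, and the nuclear receptor core AGGTCA, each on both strands.
Ntrk2, chr13:58806319-58806568, plus strand: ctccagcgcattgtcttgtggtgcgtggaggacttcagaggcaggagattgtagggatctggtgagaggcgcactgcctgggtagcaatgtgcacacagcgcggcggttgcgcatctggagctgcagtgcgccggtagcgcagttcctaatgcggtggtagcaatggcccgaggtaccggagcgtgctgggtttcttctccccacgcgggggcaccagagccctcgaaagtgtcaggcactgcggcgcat
A1bg, chr15:60921271-60921520, minus strand: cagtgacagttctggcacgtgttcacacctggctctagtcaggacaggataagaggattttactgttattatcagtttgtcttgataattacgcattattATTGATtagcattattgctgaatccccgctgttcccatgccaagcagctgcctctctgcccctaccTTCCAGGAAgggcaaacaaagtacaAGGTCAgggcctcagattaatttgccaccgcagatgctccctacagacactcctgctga

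The A1bg promoter held 3 matches that did not overlap each other. An ATTGAT lay at positions -150 to -145 from the RefSeq start, a STAT5 motif spelled TTCCAGGAA at -84 to -76, and an AGGTCA at -59 to -54. In GENCODE M21 (GRCm38) A1bg runs from 60896859 to 60923012, so the printed stretch lies inside that gene model. The positions hold for the RefSeq start only. The Ntrk2 promoter held no match to any of the motifs in its window, which ran from 250 bases before the start to 50 bases after it. Over all 32851 RefSeq promoters of this length, 8.30% held the STAT5 motif, 8.40% the HNF6 and CUX2 motif, 6.54% the forkhead motif and 16.3% the nuclear receptor core. Among the 238 promoters of the table's genes the shares were 9.66%, 6.72%, 4.20% and 17.6%. Of the printed bases, 62.8% were G or C in Ntrk2 and 47.2% in A1bg, against a median of 54.0% for the table's promoters. A match describes letters only.

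Sult2a7 stands in a cluster of related genes, and its coding sequence is shown beside that of Sult2a1 because reads from such relatives can be mistaken for each other. Sult2a1 was the closest relative among those with a full-length reading frame in GENCODE M21 (GRCm38), with 81.3% identical bases over 855 aligned positions of the longest open reading frames, and Sult2a8 the most distant at 66.4%. The lines give bases 28 to 87 of each reading frame, the 60-base window in which they differ most, with the 22 differing bases in capitals.
Sult2a7: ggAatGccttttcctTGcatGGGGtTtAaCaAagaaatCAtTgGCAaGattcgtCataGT
Sult2a1: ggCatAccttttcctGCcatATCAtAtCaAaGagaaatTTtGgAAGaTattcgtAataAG

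None of the 1273 distinct 50-base stretches of the Sult2a7 transcripts, on either strand, occurred exactly in a transcript of another gene. The same held for the 2765 stretches of Cyp17a1. For Ntrk2 it was 56 of 19250 (0.291%), and none of its 100-base stretches was shared. For A1bg, 264 of 2397 stretches (11.0%) were shared, all with 4930402D18Rik, an annotated antisense gene that overlaps it. Ntrk2 overlaps 4 annotated loci, 3 of them on the opposite strand. The libraries were stranded, but whether the authors counted by strand is not given. Reads from the stretches that A1bg shares with 4930402D18Rik therefore cannot be told apart from those of that gene. For Ntrk2 the shared 50-base stretches were spread over 365 other genes. These counts cover exact matches to annotated transcripts only. Whether reads from the loci that overlap Ntrk2 were counted for it was not tested.

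Cyp17a1 (ENSMUSG00000003555) lies on chromosome 19 from 46655604 to 46661611 on the minus strand, in the coordinates of the table, whose mouse build the sources used here do not name. Its level was 40.6, 26.9 and 27.4 CPM in vehicle replicates 1, 2 and 3. In gigantol replicates 1, 2 and 3 it was 6.07, 13.5 and 2.64 CPM. Vehicle replicate 1 was the highest of the 6 livers and gigantol replicate 3 the lowest, and the lowest vehicle liver stood 2.00 times above the highest gigantol liver. The gene was at 31.6 ± 7.78 CPM in vehicle and 7.40 ± 5.53 CPM in gigantol livers (SD, n = 3 each), a mean 4.28 times lower with gigantol. Without gigantol replicate 2 the gigantol mean was 4.36 CPM and the ratio 7.26. On the log2(CPM + 1) scale, which understates changes of low genes, the difference was -2.16 ± 0.531 (SE from limma). Here and below, that SE is moderated with the variance of the other rows and is not the gene's own. The authors' deposited table gave a log2 fold change of -2.09 and an FDR of 0.00468.

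Sult2a7 (ENSMUSG00000094156) is placed on chromosome 7 from 14198976 to 14228155, minus strand. It was at 1.80, 2.31 and 2.08 CPM in vehicle replicates 1, 2 and 3, or 48, 59 and 48 reads. In gigantol replicates 1, 2 and 3 it was at 0.0940, 0.516 and 0.407 CPM, or 2, 11 and 10 reads. The 3 vehicle livers were close together, and gigantol replicate 1 was under the level of 3 reads. The means were 2.06 ± 0.255 CPM and 0.339 ± 0.219 CPM (SD, n = 3 each), 6.08 times lower with gigantol. Taking the reads of each group together (155 against 23), the ratio per depth was 6.01 with an exact 95% interval of 3.86 to 9.76, which covers counting error only. The log2(CPM + 1) difference was -1.20 ± 0.201 (SE from limma), and -2.45 with a pseudocount of 0.1 CPM in place of 1. In the authors' deposited table its log2 fold change was -2.59 and its FDR 0.000294.

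Ntrk2 (ENSMUSG00000055254) is placed on chromosome 13 from 58954383 to 59281784, plus strand. Vehicle replicates 1, 2 and 3 had 0.300, 0.469 and 0.434 CPM, which were 8, 12 and 10 reads. Gigantol replicates 1, 2 and 3 had 4.90, 2.02 and 1.79 CPM, or 104, 43 and 44 reads. All gigantol livers were at least 3.81 times above the highest vehicle liver, and replicate 1 stood apart from the other gigantol livers. The means were 0.401 ± 0.0892 CPM and 2.90 ± 1.73 CPM (SD, n = 3 each), 7.23 times higher with gigantol. Without gigantol replicate 1 the gigantol mean was 1.90 CPM, 4.75 times the vehicle mean. The log2(CPM + 1) difference was 1.39 ± 0.291 (SE from limma), and 2.45 with a pseudocount of 0.1 CPM. The authors' deposited table gave a log2 fold change of 2.86 and an FDR of 0.000107. The table lists 10 transcripts for Ntrk2, and its values do not separate transcripts with the kinase domain from shorter ones.

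A1bg (ENSMUSG00000022347) is placed on chromosome 15 from 60768708 to 60794861, minus strand. It had 0.262, 0.547 and 0.434 CPM in vehicle replicates 1, 2 and 3, or 7, 14 and 10 reads. In gigantol replicates 1, 2 and 3 it had 2.12, 1.17 and 6.30 CPM, or 45, 25 and 155 reads. Gigantol replicate 3 was well above the other livers, and the lowest gigantol liver was 2.14 times the highest vehicle liver. The means were 0.414 ± 0.144 CPM and 3.198 ± 2.73 CPM (SD, n = 3 each), 7.72 times higher with gigantol. Without gigantol replicate 3 the gigantol mean was 1.65 CPM and the ratio 3.97. The log2(CPM + 1) difference was 1.38 ± 0.370 (SE from limma), and 2.39 with a pseudocount of 0.1 CPM. Its log2 fold change in the authors' deposited table was 2.95 and its FDR 0.00176.

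**Figure D1:**
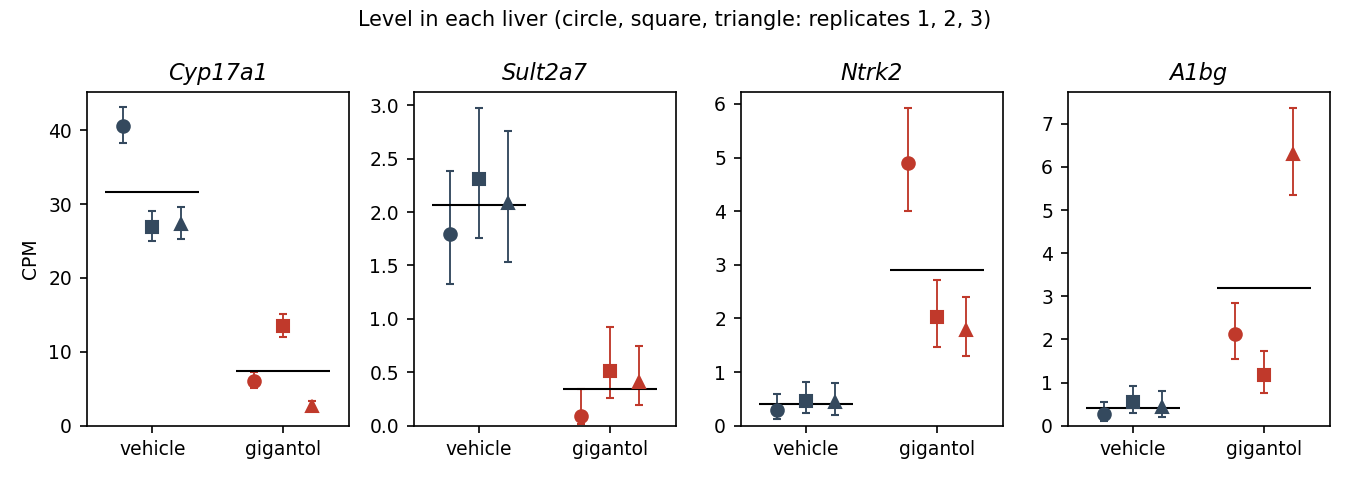
Level of each gene in CPM (vertical axis, from 0) in the vehicle and gigantol livers; each symbol is 1 liver, bars are exact 95% Poisson intervals of its reads, which cover counting error only, and lines are group means. Cyp17a1 and Sult2a7 are lower and Ntrk2 and A1bg higher in all 3 gigantol livers, with gigantol replicate 1 at 4.90 CPM for Ntrk2 and replicate 3 at 6.30 CPM for A1bg.

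All 4 genes had an FDR under 0.05 in the authors' deposited table, where 25.9% of the 332 rows did (10.2% upward and 15.7% downward). The groups did not overlap for any of the 4, as for 72% of the rows. With limma on the rows of at least 1 CPM in at least 3 libraries, 55.2% of 201 rows passed an adjusted p of 0.05 adjusted over the table. The 4 genes were picked with this contrast known, so nothing is read from these shares. In bulk tissue, fewer cells of a type and less RNA per cell cannot be told apart.

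As a ratio of the highest to the lowest liver, the gigantol livers were further apart than the vehicle livers for each of the 4 genes. The highest gigantol liver was 5.10, 5.49, 2.74 and 5.37 times the lowest for Cyp17a1, Sult2a7, Ntrk2 and A1bg. Among vehicle livers this ratio was 1.51, 1.28, 1.56 and 2.09. The ratio of Sult2a7 in gigantol livers rests on a liver with 2 reads. By the SD in CPM, the spread of Cyp17a1 and Sult2a7 was instead smaller in gigantol livers (5.53 against 7.78 and 0.219 against 0.255 CPM). On the log2(CPM + 1) scale the range was wider in gigantol livers for all 4 genes and for 50.9% of all rows.

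No pair of the 4 genes ranked the gigantol livers in the same order. Cyp17a1, which was lower, and A1bg, which was higher, ranked them in exactly opposite orders. For both, replicate 3 thus lay farthest from the vehicle livers and replicate 2 nearest. Replicates 2 and 3 were nearly tied in reads for Sult2a7 (11 and 10) and Ntrk2 (43 and 44), so their order there lies within counting error. Gigantol replicate 2 was the nearest to the vehicle mean on the log2(CPM + 1) scale for Cyp17a1, Sult2a7 and A1bg, and replicate 3 for Ntrk2. Over all rows, replicate 2 was the nearest for 42.2% and replicate 3 for 30.4%. Vehicle replicate 1 was the farthest from the gigantol mean for Cyp17a1, Ntrk2 and A1bg (34.9% of all rows), and vehicle replicate 2 for Sult2a7. Averaged over 6 livers, the centred profiles of the pair that was higher, Ntrk2 and A1bg, lay 0.48 log2 units apart, and those of the pair that was lower, Cyp17a1 and Sult2a7, 0.59. Profiles of pairs that went opposite ways lay 1.29 to 1.77 apart, a difference that their choice fixes.

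Per kb of merged exons in GENCODE M21, the vehicle levels ran from 11.4 ± 2.81 CPM per kb for Cyp17a1 over 1.61 ± 0.200 for Sult2a7 and 0.173 ± 0.0598 for A1bg to 0.0208 ± 0.00462 for Ntrk2 (SD, n = 3). No neighbours in this order overlapped in any vehicle liver. In gigantol livers the levels were 2.67 ± 2.00 CPM per kb for Cyp17a1, 1.33 ± 1.14 for A1bg, 0.265 ± 0.171 for Sult2a7 and 0.150 ± 0.0898 for Ntrk2 (SD, n = 3). There Cyp17a1 (0.954 to 4.86) overlapped A1bg (0.489 to 2.63), and Sult2a7 (0.0736 to 0.404) overlapped Ntrk2 (0.0927 to 0.254). The Ntrk2 exons of all annotated transcripts add up to 19.3 kb against 1.28 to 2.77 kb for the other genes, which lowers its value on this scale. The span of each gene in the table has the length of its span in GENCODE M21, though the coordinates differ.

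**Figure D2:**
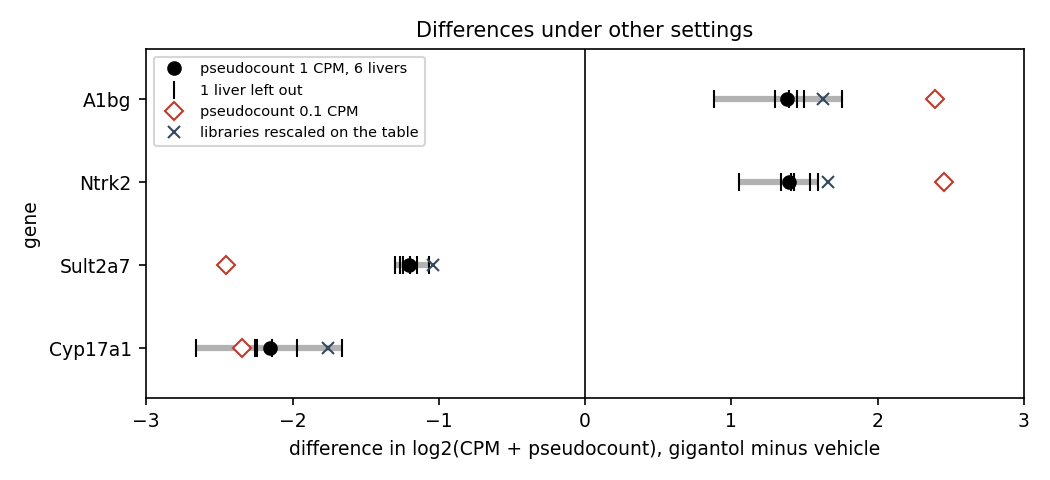
Difference between gigantol and vehicle livers in log2(CPM + pseudocount) (horizontal axis) for each gene, with all 6 livers, with 1 liver left out, with a smaller pseudocount and with libraries rescaled on the table's own rows. The sign is the same under all of these, which for pseudocounts and left-out livers follows from groups that do not overlap. The smaller pseudocount moves Sult2a7 from -1.20 to -2.45 and Ntrk2 from 1.39 to 2.45.

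The 3 rows with the most similar profile were found for each gene by the mean absolute difference between log2(CPM + 1) profiles over 6 livers, each centred on its own mean, among 200 other rows of at least 1 CPM in at least 3 libraries. For Cyp17a1 they were Cyp7a1, the rate-limiting enzyme of bile acid synthesis (0.36 log2 units apart per liver), G6pc, which encodes the enzyme of the last step of glucose release (0.40), and Cish (0.42), against a median of 0.93. Cyp7a1 was at 39.9, 140 and 36.5 CPM in gigantol replicates 1, 2 and 3 and at 159 to 202 CPM in vehicle livers. Cyp7a1 and Cish did not pass in the authors' deposited table (FDR 0.222 and 0.0587), whereas G6pc did (0.0398). Like Cyp17a1, all these genes were highest among gigantol livers in replicate 2.

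For Sult2a7 the nearest rows were Gbp11, an interferon-inducible guanylate-binding protein gene (0.15), the signalling adaptor gene Stap1 (0.17) and the pseudogene Spr-ps1 (0.18), against a median of 0.53. Spr-ps1 was at 1.15 ± 0.0233 CPM in vehicle and 0.208 ± 0.164 CPM in gigantol livers (SD, n = 3 each). For Ntrk2 they were Hyal1, which encodes a hyaluronidase (0.21), Fam81a (0.30) and Inhbe, which encodes the beta E chain of activin (0.30), against a median of 1.06. Hyal1 was also highest in gigantol replicate 1, at 28.2 CPM against 19.2 and 18.7 CPM in the others and 7.74 to 11.3 CPM in vehicle livers. Inhbe was instead highest in gigantol replicate 3, at 40.8, 31.7 and 44.4 CPM in gigantol replicates 1, 2 and 3.

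For A1bg they were the predicted genes Gm47102 (0.18), Gm48415 (0.22) and Gm48216 (0.28), against a median of 1.07. These were also highest in gigantol replicate 3, at 8.66, 19.7 and 8.37 CPM, and lowest among gigantol livers in replicate 2. Gm48415 and Gm48216 did not pass in the authors' deposited table (FDR 0.186 and 0.209). For both, gigantol replicate 2 (4.74 and 2.21 CPM) lay among the vehicle livers (3.44 to 5.06 and 0.781 to 2.40 CPM). These lists depend on the measure. When profiles were centred on each group's own mean, 1 of 3 was shared for Cyp17a1, 1 for Sult2a7, 0 for Ntrk2 and 2 for A1bg, and by correlation 1, 1, 1 and 2 were shared.

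**Figure D3:**
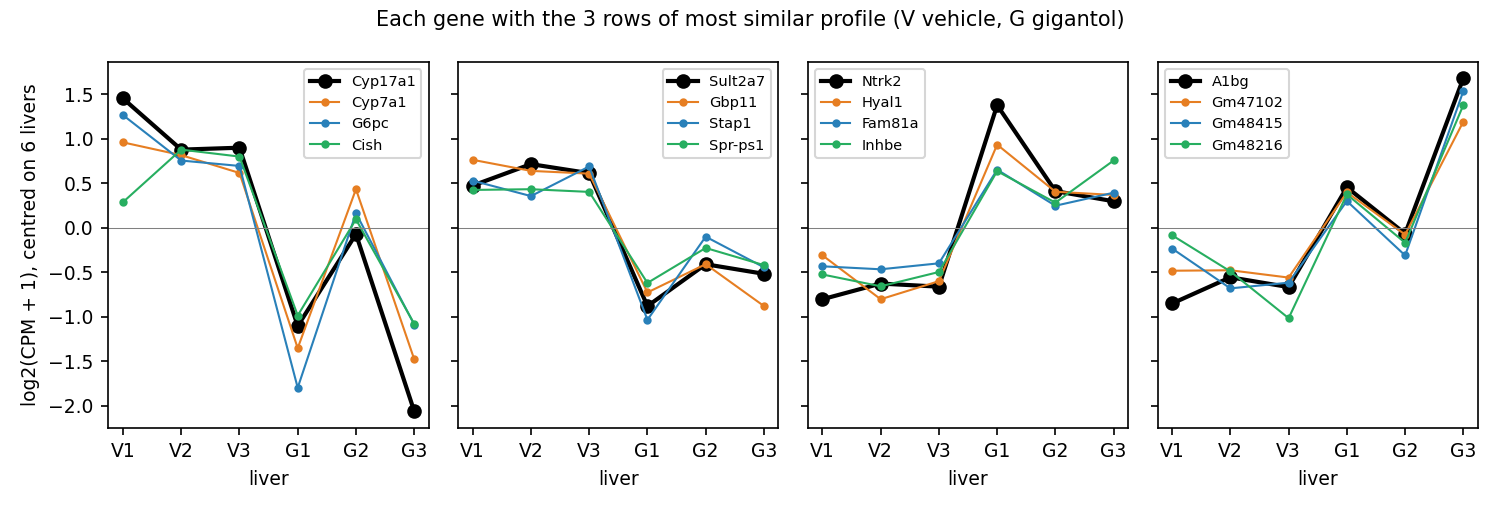
Profiles over the 3 vehicle (V) and 3 gigantol (G) livers of each gene (black) and the 3 rows most similar to it (colours), as log2(CPM + 1) centred on the mean of 6 livers (vertical axis). Gigantol replicate 2 is the highest gigantol liver for Cyp17a1, Cyp7a1, G6pc and Cish, and the high replicate 3 of A1bg recurs in its 3 rows.

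Of 43 genes listed as favoured by continuous growth hormone or by females, 6 were rows of the table, and 5 had an FDR under 0.05 in the authors' deposited table, 2 upward (Ntrk2 and A1bg) and 3 downward, where 25.9% of all rows did. Of these 5 genes 4 had been picked on this contrast, so nothing is read from the count. The third of the lower genes was Acot3, a peroxisomal acyl-CoA thioesterase, at 35.7, 45.0 and 40.0 CPM in vehicle and 12.2, 8.82 and 13.9 CPM in gigantol replicates 1, 2 and 3. Cyp2b10, a drug-metabolising P450, did not pass. It was at 160, 59.0 and 195 CPM in gigantol and 67.5, 49.2 and 55.8 CPM in vehicle livers, so that gigantol replicate 2 lay among the vehicle livers. The list's median log2(CPM + 1) difference was -0.05, against -0.52 over all rows. The other 37 listed genes, among them Cux2, Sult1e1 and the other Sult2a genes, were not analysed here.

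Of 34 genes listed as favoured by pulses or by males, 10 were rows of the table. In the authors' deposited table, 5 of them rose at an FDR under 0.05 (Hsd3b5, Slco1a1, Serpina4-ps1, Selenbp2 and C8b) and 1 fell (Cyp4a12b), where 10.2% of all rows had such an FDR upward and 15.7% downward. The other 4 (Ugt2b38, Cyp7b1, Elovl3 and Mup20) had higher means and did not pass, and the list's median log2(CPM + 1) difference was 1.11, against -0.52 over all rows. The list was chosen with earlier results of these data known, and all rows had been selected on these livers. Nothing is therefore read from this count or median. Hsd3b5, a hydroxysteroid dehydrogenase family gene of male liver, was at 19.6, 28.7 and 19.2 CPM in gigantol and 1.57, 3.13 and 2.39 CPM in vehicle replicates 1, 2 and 3. Gigantol replicate 2 was the highest gigantol liver for 9 of these 10 genes. The share of all rows highest in that liver was not counted. All rows of the table together made up 0.842% of the library in gigantol replicate 2, against 0.637% and 0.653% in replicates 1 and 3. Nothing particular to these genes is therefore read from the 9 of 10. Gigantol replicate 2 is also the liver in which Cyp17a1 and Sult2a7 were highest among gigantol livers and A1bg was lowest. For Sult2a7 this rests on 11 reads against 10 in replicate 3, which lies within counting error.

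Of 24 genes of growth hormone signalling and its factors, 2 were rows of the table, and both had lower values with gigantol. Socs2 was at 18.0, 41.4 and 46.2 CPM in vehicle and 7.67, 13.3 and 9.43 CPM in gigantol replicates 1, 2 and 3, and the authors' deposited table gave it an FDR of 0.000694. Cish was at 12.8, 19.8 and 18.7 CPM in vehicle and 4.71, 11.1 and 4.35 CPM in gigantol livers, and its FDR in the authors' deposited table was 0.0587. The groups did not overlap for either gene, as for 72% of all rows. For both, gigantol replicate 2 was the highest gigantol liver and vehicle replicate 1 the lowest vehicle liver. Ghr, Jak2, Stat5b, Bcl6 and the others of the list were not analysed here.

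**Figure D4:**
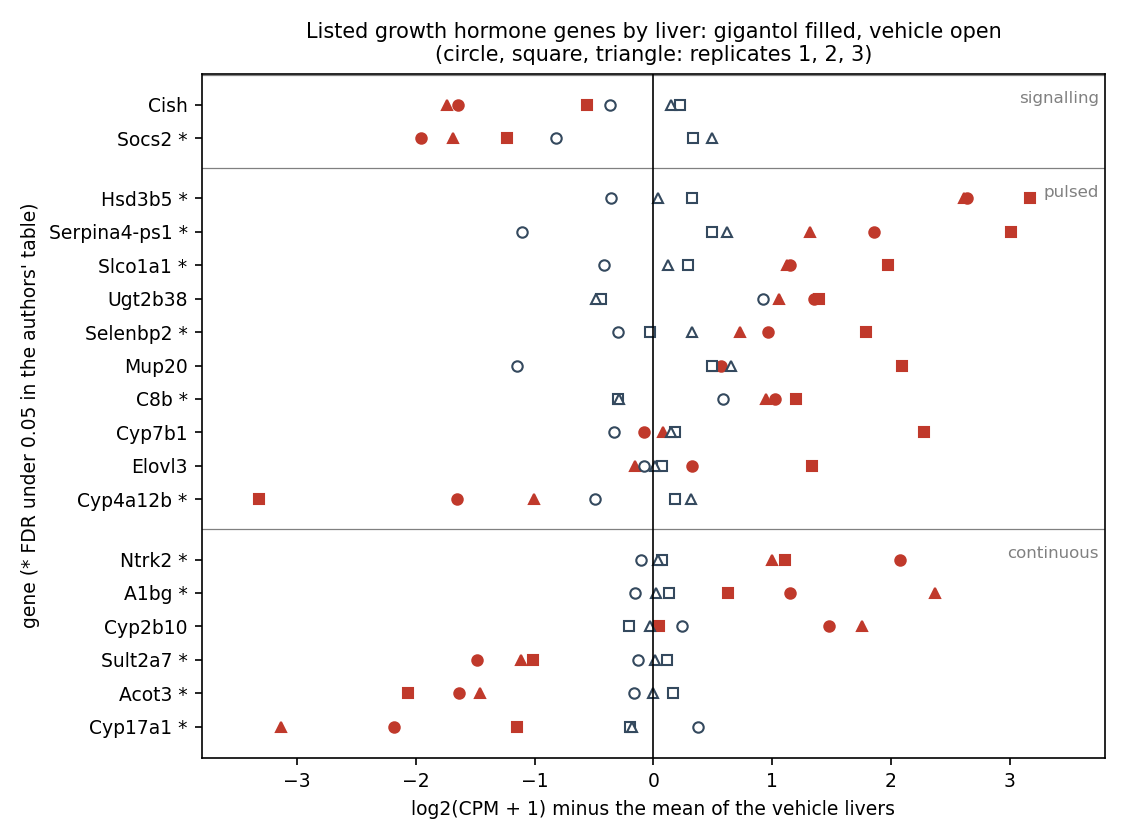
Each listed gene among the table's rows (vertical axis), with the log2(CPM + 1) of every liver minus the vehicle mean (horizontal axis); filled symbols are gigantol and open ones vehicle livers, and a star marks an FDR under 0.05 in the authors' deposited table. The continuous group splits, with Cyp17a1, Acot3 and Sult2a7 to the left and Ntrk2 and A1bg to the right of all vehicle livers. In the pulsed group 9 of the 10 genes have a higher gigantol mean. Rows and lists were chosen with results of these livers known.

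Some markers of other cell types were also rows, all of which had been selected for a difference between these livers. By the authors' deposited table Hba-a2 and Marco were those with an FDR under 0.05, where 25.9% of all rows passed. Of 7 red cell markers 6 were rows, and all 6 had lower means, where 213 of the 332 rows had a negative log2 fold change. The red cell markers summed to 349 to 633 CPM in gigantol and 554 to 1913 CPM in vehicle livers. The groups overlapped for Hba-a1, Hbb-bs, Hbb-bt and Slc4a1. The macrophage receptor gene Marco, the only row of 12 Kupffer and myeloid markers, fell and was at 1.55 to 3.71 against 8.21 to 8.89 CPM. Of 9 lymphocyte markers 3 were rows, summing to 0.565 to 0.939 against 2.00 to 2.27 CPM, and of 12 stellate cell markers 2 were, Lrat and Des, summing to 6.81 to 11.9 against 13.1 to 24.5 CPM. None of the lymphocyte and stellate cell rows passed. None of these markers was at 0 in all libraries. No marker listed for endothelial cells, cholangiocytes, neurons and Schwann cells, or adrenal and gonadal steroid cells was among the rows. The part of other cell types in the values of the 4 genes was not tested.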

How the data were processed

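Stranded libraries were made from rRNA-depleted RNA of 6 mouse livers, per the labels' protocols. The submitters' processing notes list HISAT2, fastp and DESeq2 1.16.1 without saying what each did, and the human build GRCh38; the read counter, its strand setting and the annotation were not given. The deposited table holds values per library that were read as CPM scaled by the authors: in each library all values up to 200 reads were whole multiples of 1 step within 0.1 reads. The log2 fold changes and the p-values with their FDR are the authors', per the file headers, and were adjusted over 13192 genes, worked out from the FDR, p and rank of the rows. No count test was run.

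Group means, SDs and differences in log2(CPM + 1) were computed in Python 3.11.15. limma 3.58.1 in R 4.3.3 (trended, robust, two-sided, Benjamini-Hochberg) was fitted to all rows of at least 1 CPM in at least 3 libraries, for standard errors and the share of rows called, and was tested on simulated data. Since the rows had been selected on these libraries, this adjustment is circular. The limma standard errors likewise draw on the variance of these selected rows. The genes' own SDs between livers on the log2(CPM + 1) scale, pooled within groups, were 0.741 for Cyp17a1, 0.194 for Sult2a7, 0.425 for Ntrk2 and 0.643 for A1bg. The authors' FDR under 0.05 served as the call for listed genes. The 4 genes and the gene lists were chosen with earlier results of these data known. Named were the 4 genes, the 3 rows most similar to each, and every listed row. The labels pair no mice, and p-values set the difference between the groups against the spread between these livers. Alternatives were other pseudocounts, filters, variance moderation, a replicate block, rescaling and leaving out each liver.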

Additional observations from a re-analysis of the deposited data

How the results depend on the processing

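The sign of the log2 difference of Cyp17a1, Sult2a7, Ntrk2 and A1bg was the same in all 49 alternatives run. Since the groups did not overlap for any of the 4, no pseudocount or left-out liver could have reversed a sign. In 45 alternatives the value moved by less than 1 SD between livers. These include the filters, the variance moderation and the replicate block, which leave the difference itself unchanged. The other 4 were pseudocounts: with 0.1 CPM the differences were -2.45 for Sult2a7, 2.45 for Ntrk2 and 2.39 for A1bg, and with 0.5 CPM that of Sult2a7 was -1.64. Leaving out 1 liver gave -2.66 to -1.66 for Cyp17a1, -1.30 to -1.06 for Sult2a7, 1.05 to 1.59 for Ntrk2 and 0.89 to 1.76 for A1bg. Rescaling libraries by median ratios over the table moved the median of all rows by 0.16 to -0.36. Relative to that median Cyp17a1 was at -1.40, Sult2a7 at -0.68, Ntrk2 at 2.02 and A1bg at 1.99. The table had been selected for differences, with more rows lower than higher, so this rescaling can remove part of the difference itself. The 111 of 201 rows called by limma (40 higher, 71 lower) became 93 of 204 (69 higher, 24 lower) after rescaling. They became 169 with no filter, which tests more rows, and 24 among rows with a mean of at least 5 CPM, which tests fewer. They ranged from 32 to 136 with 1 liver left out, at 57 without gigantol replicate 1, 60 without gigantol replicate 3, 32 without vehicle replicate 2 and 35 without vehicle replicate 3. With the replicate number as a replicate block limma called 128. The livers share only a number: deviations of same-numbered livers correlated at 0.128, 0.149 and -0.105 across 201 genes. At an FDR under 0.01 in the authors' deposited table, 49 rows passed in place of 86, the 4 genes among them. Depth limits Sult2a7 in gigantol livers, at 2 to 11 reads, and Ntrk2 and A1bg in vehicle livers, at 7 to 14 reads.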

Other observations

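Among 26 sulfotransferase and sulfate supply genes, Sult5a1, a further cytosolic sulfotransferase gene, was the only row besides Sult2a7, and it went the other way. It rose from 0.562, 1.10 and 0.867 CPM in vehicle replicates 1, 2 and 3 to 2.97, 5.73 and 1.71 CPM in gigantol replicates 1, 2 and 3, and its FDR was 0.0143 in the authors' deposited table. Gigantol replicate 2 was the highest liver, and the groups did not overlap. Among 30 genes of steroid metabolism, Hsd3b5 and Cyp7b1, an oxysterol hydroxylase, were the rows besides Cyp17a1. Cyp7b1 did not pass and was at 16.0, 85.8 and 18.0 CPM in gigantol against 13.3 to 19.4 CPM in vehicle livers. Of 11 genes of neurotrophins and their receptors Ntrk2 alone was analysed here.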
